A study of Arabidopsis thaliana with 4 samples.

Results

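The last 50 nucleotides (nt) of an intron hold the signals by which the spliceosome finds the 3′ splice site (3′ss): the branch site, the uridine-rich stretch after it and the terminal AG. They were examined here as a set of 8614 introns from 3400 Arabidopsis thaliana genes, out of 15678 introns whose SHAPE reactivities were listed both in vivo and in the deproteinized condition. An intron was taken when it was listed in both conditions with 200 or more entries, that is with an intron of at least 100 nt between 50 nt of exon on either side. Positions are counted back from the last intron nucleotide, which is −1, so that a row of N entries gives its entries N−99 to N−50. For a reference inside the same intron, the 20 nt centred on the intron midpoint were used and are called the intron middle.

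The study treated 5-day-old Col-0 seedlings with the SHAPE reagent NAI at 100 mM, which acylates the 2′-hydroxyl of flexible nucleotides, and isolated nuclei afterwards (in vivo). In the deproteinized condition NAI was applied to nuclear RNA after nuclei had been lysed and proteins removed. Each condition has 1 NAI sample and 1 control sample without the reagent, from plants of the same age and genotype. The whole seedling was used, so that every reactivity is an average over its cell types and over all RNA molecules of an intron.

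Each deposited value is a score between 0 and 1 that was scaled within its own intron, and replicates were merged before deposit. No spread between plants or libraries can therefore be given, no test was run, and every n below counts introns. The 95% intervals keep the introns of a gene together and cover the spread between introns only. The depth behind a score is unknown. The intermediate score found most often in an intron is called its recurring score. It took a median of 31.2% of the scores of an intron in vivo and 25.6% in the deproteinized condition. Its share was small in some introns, with 0.476% for an intron of PYK10 in the deproteinized condition. Of the last 50 nt, 2.34% of entries were missing in vivo on the plus strand and 8.66% on the minus strand, whereas under 0.5% were missing in the deproteinized condition (0.282% and 0.472%). Values by strand are given beside the results where they differed most.

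In the first step of splicing the branch site adenosine attacks the 5′ splice site through its 2′-hydroxyl, the same chemical group that NAI modifies. The branch site is bound by the branchpoint-binding protein SF1 and then pairs with U2 snRNA, which leaves its adenosine bulged out of the helix. The large subunit of U2AF binds the pyrimidine-rich stretch and the small subunit contacts the AG. These roles are known best from yeast and animals, and the same factors are conserved in plants. In Arabidopsis the branch site consensus is loose, and introns are U-rich over their whole length.

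For 8579 of the 8614 introns the gene was found in the TAIR10.1 annotation and the sequence could be read. Of these introns, 8462 (98.6%) ended in AG and 115 in AC, 8208 started with GU, 254 with GC and 115 with AU. All 115 introns that started with AU ended in AC. They lay on chromosomes 1 to 5, with 4622 on the plus and 3957 on the minus strand, and their median length was 191 nt, with quartiles at 121 and 349 nt and the longest at 7384 nt. Rows are not all separate sites: 8579 introns had 7690 distinct 3′ ends, and the first pairs of introns that share a 3′ end had almost the same scores over their last 50 nt (median correlation over nucleotides 1.00 in both conditions, 671 pairs in vivo and 722 deproteinized).

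The sequences of 5 introns are shown, since they let the branch motif and the AG be read beside the scores of both conditions. They are those, among introns with all scores present before the AG and a branch motif, with the smallest share of the recurring score. Sequences are the last 50 nt of the intron from TAIR10.1, 5′ to 3′, with T for U and the AG at the end. Capitals mark nucleotides with a score of 0.6 or more in the condition named, and lower case the rest.
PYK10, intron 9 of 12, minus strand, chr3:2841364-2841413, in vivo: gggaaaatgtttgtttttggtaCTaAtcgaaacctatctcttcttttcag
PYK10, deproteinized: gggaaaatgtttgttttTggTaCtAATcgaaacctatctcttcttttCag
AT2G40110, plus strand, chr2:16748898-16748947, in vivo: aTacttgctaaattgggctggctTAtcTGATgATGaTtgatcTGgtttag
AT2G40110, deproteinized: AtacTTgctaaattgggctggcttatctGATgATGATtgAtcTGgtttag
GAPC1, intron 1 of 8, plus strand, chr3:1081136-1081185, in vivo: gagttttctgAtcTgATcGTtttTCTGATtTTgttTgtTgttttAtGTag
GAPC1, deproteinized: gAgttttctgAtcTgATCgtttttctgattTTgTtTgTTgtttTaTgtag
GRP7, intron 1 of 1, minus strand, chr2:9265894-9265943, in vivo: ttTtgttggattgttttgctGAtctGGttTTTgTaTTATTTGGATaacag
GRP7, deproteinized: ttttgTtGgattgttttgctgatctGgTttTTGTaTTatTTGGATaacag
GPAT3, intron 1 of 1, minus strand, chr4:845479-845528, in vivo: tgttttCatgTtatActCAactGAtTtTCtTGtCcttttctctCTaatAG
GPAT3, deproteinized: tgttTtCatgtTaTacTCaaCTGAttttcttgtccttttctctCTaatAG

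In PYK10, which encodes a β-glucosidase of the endoplasmic reticulum bodies, the CTAAT motif stood out from an otherwise low window. Its branch adenosine at −25 scored 1 in both conditions, and the adenosine before it 0.568 in vivo and 0.982 in the deproteinized condition. The whole window averaged 0.258 in vivo and 0.347 after deproteinization. Both conditions were low at the AG, with 0.125 and 0.191 at −2 and 0.140 and 0.178 at −1.

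AT2G40110 encodes a Yippee-family zinc-binding protein, and its listed intron is in none of the 4 RefSeq transcripts of the gene. The adenosine of its CTGAT motif at −21 scored 1 in both conditions, and the G before it 0.974 and 1. In GPAT3, a member of the glycerol-3-phosphate acyltransferase family, the motif adenosine at −27 scored 1 in vivo and 0.838 in the deproteinized condition, and the terminal G scored 1 in both.

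Other introns differed between the conditions at the same place. GAPC1 encodes a cytosolic glyceraldehyde-3-phosphate dehydrogenase of glycolysis. Its motif adenosine nearest the end, at −23, scored 1 in vivo and 0 in the deproteinized condition. The same window also holds CTGAT with its adenosine at −40, which scored 1 and 0.682, and at −35, which scored 1 in both conditions. GRP7 encodes a glycine-rich RNA-binding protein that is under clock control and regulates splicing of its own transcript. Its motif adenosine at −29 scored 1 in vivo and 0.0146 in the deproteinized condition. The sixth intron of the set, in the RNA-binding protein gene AT3G15010, had low scores at the motif adenosine at −36 in both conditions, 0.129 in vivo and 0.332 deproteinized. The motif adenosine nearest the end thus scored 0.6 or more in vivo in 5 of the 6 introns, each time 1. In the deproteinized condition it scored 0.6 or more in 3. Over all introns with the motif these shares were 52.1% in vivo and 53.5% deproteinized. The 6 introns are single cases without replicates.

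**Figure D1:**
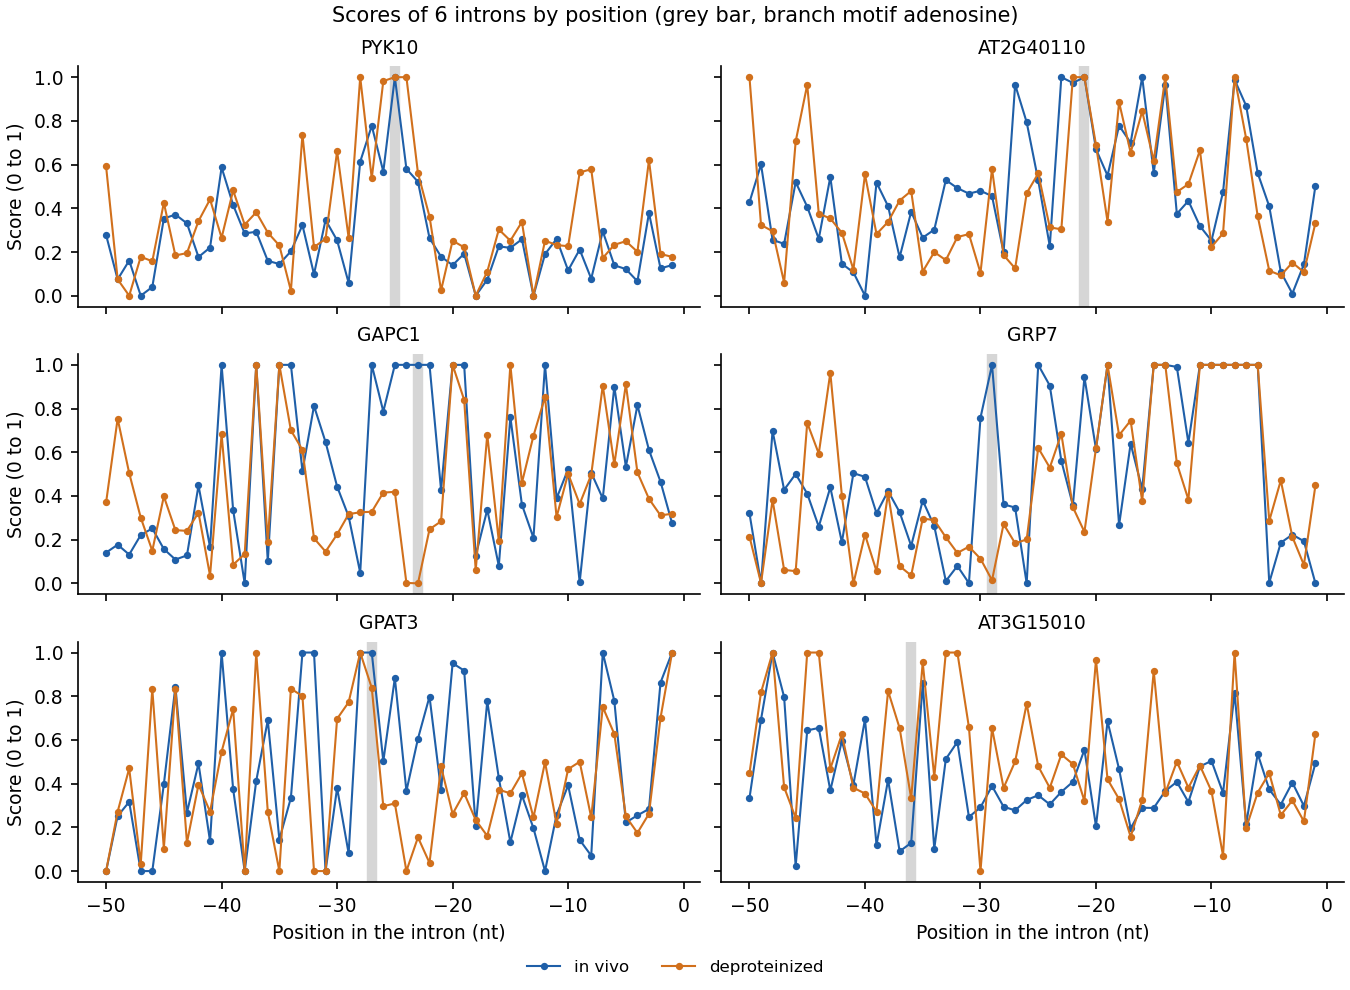
Scores (y, 0 to 1) by position (x, nt, last intron nucleotide −1) in the 6 introns described, in vivo in blue and deproteinized in orange, with a grey bar at the branch motif adenosine. The bar meets a score of 1 in both conditions in PYK10 and AT2G40110, and in vivo alone in GAPC1, GRP7 and GPAT3.

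Across all introns, the last 50 nt were more reactive than the intron middle in both conditions. In vivo they averaged 0.375 ± 0.0739 (SD, n = 8248 introns) and the middle 0.345 ± 0.0864 (n = 8145), a mean difference within introns of 0.0299 (95% interval 0.0274 to 0.0324), and 66.8% of introns were higher in the last 50 nt. In the deproteinized condition the means were 0.391 ± 0.0642 (n = 8588) and 0.352 ± 0.0776 (n = 8595), the difference 0.0382 (95% interval 0.0358 to 0.0405), and 71.04% of introns were higher. In vivo the excess was 0.0226 on the plus strand (95% interval 0.0196 to 0.0257) and 0.0389 on the minus strand (95% interval 0.0349 to 0.0429), while in the deproteinized condition it was 0.0368 and 0.0398. The SD over introns is larger than the difference in either condition, so the rise describes the average intron and not each one. Introns of under 120 nt, 2082 of the set, have a middle that overlaps the start of the last 50 nt. With introns of 150 nt or more and a middle of 50 nt the differences were 0.0366 and 0.0411.

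Along the window the level changed several times. From −50 to −39 the means were flat in vivo, between 0.358 and 0.363, and between 0.358 and 0.375 in the deproteinized condition. From −30 to −20, where branch sites lie, they reached 0.381 to 0.392 in vivo and 0.406 to 0.423 deproteinized, with the highest of these deproteinized means at −25. Upstream of −5 the highest in vivo mean lay at −10, with 0.415, beside 0.421 in the deproteinized condition.

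At −5 the profile dropped in both conditions, from 0.403 at −6 to 0.331 in vivo and from 0.392 to 0.332 in the deproteinized condition. The lowest mean of the window lay at −4, with 0.316 ± 0.188 (SD, n = 8248) in vivo and 0.313 ± 0.182 (n = 8581) deproteinized. Over −5 and −4 together the scores were below those of the middle, with differences of −0.0206 in vivo (95% interval −0.0246 to −0.0166) and −0.0302 deproteinized (95% interval −0.0340 to −0.0265). The recurring score took 42.0% of entries at −5 and 45.4% at −4 in vivo, and 34.7% and 39.9% in the deproteinized condition, against at most 32.8% and 27.2% at any position from −50 to −6. The share of that score moves with the drop, and its part in it was not tested.

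From −3 to −1 the means went up again. The −1 position had the highest mean of the window, 0.424 ± 0.328 (SD, n = 8227) in vivo and 0.456 ± 0.344 (n = 8583) deproteinized. Scores there were spread to both ends: 14.2% of introns had the highest score and 11.4% the lowest in vivo, and 16.6% and 12.6% did in the deproteinized condition, against 5.21% and 5.77% in vivo at −50.

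**Figure D2:**
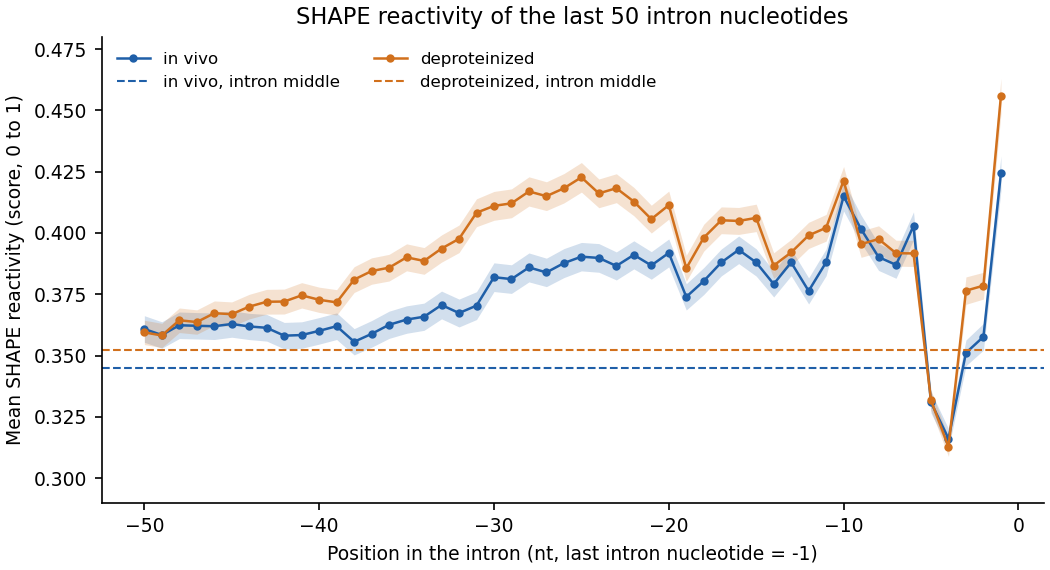
Mean SHAPE reactivity (y) by position from −50 to −1 (x, nt) in vivo (blue) and in the deproteinized condition (orange). The y axis gives the score and starts at 0.29. Dashed lines are the mean of the intron middle. Shading is a 95% interval from the SD and n at each position, with every intron taken as separate. The curves part between about −40 and −11, meet at −5 and −4, where the in vivo means are 0.331 and 0.316, below both dashed lines, and are highest at −1.

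Within introns, the last 50 nt were on average slightly less reactive in vivo than after deproteinization. Over nucleotides with a score in both conditions, in vivo minus deproteinized was −0.0153 (95% interval −0.0175 to −0.0132, SD 0.0790, n = 8233), and 58.0% of introns were lower in vivo. With scores ranked within the intron, the difference of the last 50 nt was only −0.00176 (95% interval −0.00339 to −0.000120). The intron middle had a difference of −0.00738 (95% interval −0.00987 to −0.00490, n = 8134). Its sign turned when scores were ranked within the intron, to 0.00383, and among introns whose shares of the recurring score differ by under 5 percentage points between conditions it was −0.00217, with an interval that includes 0. On the scores as deposited, −0.00802 (95% interval −0.0107 to −0.00533, n = 7826) was left for the last 50 nt beyond the middle. These averages are small against the quartiles over introns, −0.0655 and 0.0330. They also depended on the strand: the difference was −0.0238 on the plus and −0.00488 on the minus strand, and beyond the middle −0.0143 and −0.000247, the latter with an interval that includes 0. The strand also separates the shares of missing in vivo scores, and the part of these in the difference was not tested.

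Single introns past a difference of 0.1 were more often lower than higher in vivo, mainly on the plus strand. Of 8233 introns, 12.9% were lower in vivo by 0.1 or more over the last 50 nt and 6.67% were higher by as much. By strand, 14.8% were lower and 4.90% higher on the plus strand, and 10.4% lower and 8.78% higher on the minus strand. With scores ranked within the intron the shares were 4.02% and 3.84%. For the 20 nt of the middle these shares were 15.5% and 12%, over a shorter stretch that scatters more. At equal length, among introns of 150 nt or more, 13.5% were lower and 5.55% higher over the last 50 nt (n = 5005), beside 11.9% lower and 6.58% higher over 50 nt of the middle (n = 5058). The spread of the difference over introns was alike in both places, with SDs of 0.0765 and 0.0750 (n = 4787).

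The difference was not even along the window. Of the 50 positions, 34 had an interval below 0, 15 an interval that includes 0, and the −6 position alone an interval above 0, with 0.0133 (95% interval 0.00605 to 0.0205). At −6 the difference was 0.0283 on the minus strand and 0.00155, with an interval that includes 0, on the plus strand. The minus strand had 6 positions with an interval above 0 and the plus strand had 0. All 17 positions from −38 to −22 lay below 0, between −0.0374 at −31 and −0.0218 at −22. Over these positions the mean was 0.376 in vivo and 0.404 deproteinized, a difference within introns of −0.0278 (95% interval −0.0305 to −0.0251, n = 8143), and 61.3% of introns were lower in vivo. Beyond the difference of the middle it was −0.0205 (95% interval −0.0238 to −0.0172). These positions were singled out after the profile was seen, so the values describe it.

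This stretch was lower in vivo on both strands, also beyond the middle. It differed by −0.0349 on the plus strand, with intervals below 0 at 17 of 17 positions, and by −0.0189 on the minus strand, with intervals below 0 at 15 of 17. Beyond the middle the values were −0.0255 and −0.0143, both with intervals below 0. In introns with such like shares of the recurring score, the difference of the stretch was −0.0277 (n = 2565). From −10 to −6 the difference was 0.000547 and from −5 to −4 it was 0.00114, both with intervals that include 0. From −10 to −6 the strands differed. Intervals on the plus strand lay below 0 at −10, −8 and −7, with −0.0196, −0.0159 and −0.0161. Those on the minus strand lay above 0 at −9 and −6, with 0.0208 and 0.0283. At −3 the difference over all introns was −0.0255 (95% interval −0.0323 to −0.0188).

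**Figure D3:**
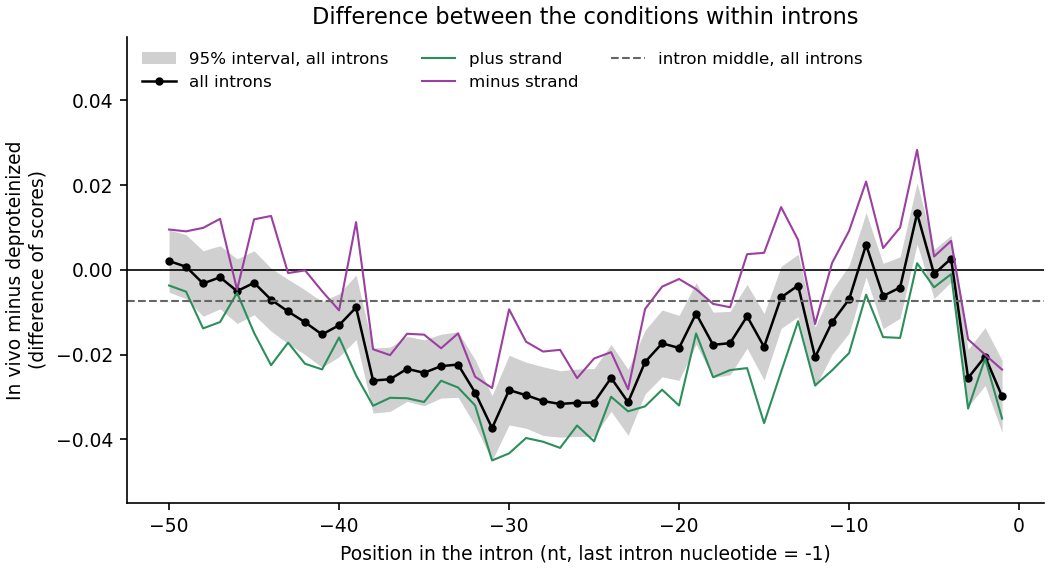
In vivo minus deproteinized score within introns (y) by position (x, nt), for all introns (black, with the 95% interval in grey), plus-strand introns (green) and minus-strand introns (purple); the dashed line is the intron middle. All 17 positions from −38 to −22 lie below 0 for all introns, the lowest at −31 with −0.0374, and the minus-strand curve runs above the plus-strand curve over most of the window.

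Nucleotides also kept their scores better between the conditions near the intron end. Among introns of 150 nt or more, the correlation of the scores of both conditions over the last 50 nt had a median of 0.268 (quartiles 0.123 and 0.409, n = 4828 introns), and over 50 nt of the middle 0.149 (quartiles 0.00682 and 0.302, n = 4894). The points of each correlation are nucleotides of 1 intron and are not independent. Recurring scores were kept in these correlations, and the part of these and of the spread of scores in the values was not tested.

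Scores differed between the bases. In the intron middle, in vivo means were 0.364 for A, 0.313 for C, 0.337 for G and 0.349 for U, and deproteinized means were 0.356, 0.332, 0.347 and 0.362. Set against the same base in the middle, the last 50 nt were still higher, by 0.0300 in vivo and 0.0380 deproteinized. At −25 the excess over the same base was 0.0447 (95% interval 0.0382 to 0.0512) in vivo and 0.0700 (95% interval 0.0632 to 0.0767) deproteinized. At −4 the difference from the same base was −0.0287 in vivo (95% interval −0.0332 to −0.0242) and −0.0388 deproteinized (95% interval −0.0431 to −0.0345), and each of the 4 bases was lower there than at −6.

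Between −30 and −21 adenosines had the highest scores of the 4 bases. There A averaged 0.447 in vivo and 0.466 in the deproteinized condition, against 0.382 and 0.375 for A from −50 to −41. Uridines went from 0.364 to 0.379 in vivo and from 0.376 to 0.410 deproteinized over the same windows, and cytidines from 0.327 to 0.330 and from 0.340 to 0.364. From −10 to −6 uridines were close to adenosines, with 0.410 and 0.424 in vivo and 0.411 and 0.404 deproteinized. The differences between the conditions from −30 to −21 had the same sign for all bases. In vivo minus deproteinized was −0.0173 for A (95% interval −0.0240 to −0.0105), −0.0343 for C, −0.0294 for G and −0.0329 for U. In the middle it was 0.0101 for A, −0.0163 for C, −0.00623 for G and −0.0123 for U.

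**Figure D4:**
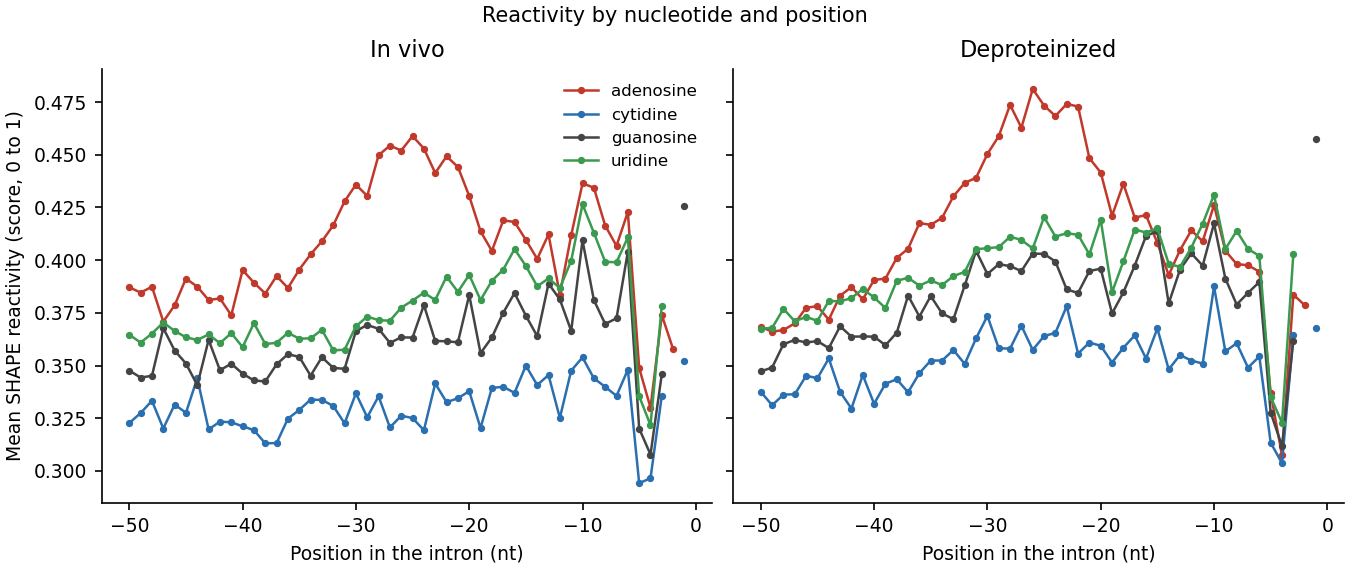
Mean SHAPE reactivity (y, score; the axis does not start at 0) of adenosines, cytidines, guanosines and uridines by position (x, nt) in vivo (left) and in the deproteinized condition (right), where a position has at least 50 such nucleotides. Adenosines (red) stand above the other bases from about −35 to −20, with 0.459 in vivo and 0.473 deproteinized at −25, and all bases are low at −5 and −4. In vivo, adenosines are above the other bases farther upstream too, with 0.387 beside 0.365 for uridines at −50.

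The U-rich stretch before the AG was more reactive than the middle. From −20 to −5, U made up 47.9% of nucleotides, against 38.5% in the middle, and A 20.1% against 27.3%. Scores from −20 to −5 averaged 0.386 ± 0.101 (SD, n = 8263) in vivo and 0.395 ± 0.0911 (n = 8579) deproteinized, above the middle by 0.0421 (95% interval 0.0390 to 0.0453) and 0.0426 (95% interval 0.0396 to 0.0456). In vivo this excess was 0.0317 on the plus and 0.0550 on the minus strand, and in the deproteinized condition 0.0403 and 0.0453. The difference between the conditions was −0.00823 (95% interval −0.0110 to −0.00550), and beyond the middle it was −0.000169 with an interval that includes 0.

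The difference between the conditions in this stretch went from negative towards positive with the number of U, and its interval included 0 in both of the classes richest in U. With 5 U or fewer of the 16 nt, in vivo minus deproteinized was −0.0151 (95% interval −0.0216 to −0.00866, 1385 introns). With 6 to 8 U it was −0.0109 (95% interval −0.0148 to −0.00701, 4014 introns), with 9 to 11 U −0.00309 (95% interval −0.00759 to 0.00142, 2906 introns), and with 12 or more U 0.0116 (95% interval −0.00349 to 0.0266, 274 introns). The in vivo means of these classes lay between 0.383 and 0.388. The deproteinized means went from 0.403 in the class with the fewest U to 0.368 in that with the most.

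For the branch site, the motif CURAY, where R is a purine and Y a pyrimidine, was searched on the transcribed strand. Written with T, its forms are CTAAC and, with U at the end, CTAAT, and with G before the adenosine CTGAC and again with U at the end CTGAT. The motif with its A nearest the intron end, 15 to 50 nt from it, was used. It was found in 2092 introns (24.4% of those with sequence, 1336 genes), with the A at a median of −28 and quartiles of −35 and −23. Among introns of 150 nt or more, 24.9% had the motif in this stretch of 36 nt, and 12.03% had it in 36 nt at the middle of the intron. A match is a description of letters and was not checked against mapped branch points.

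The motif adenosine was the most reactive nucleotide of the motif. It averaged 0.601 ± 0.385 (SD, n = 1983 introns) in vivo and 0.6002 ± 0.396 (n = 2081) in the deproteinized condition, above its flanks, which are the nucleotides at distances of 3 to 10 nt upstream and downstream, by 0.240 (95% interval 0.220 to 0.259) and 0.221 (95% interval 0.2001 to 0.241). Scores of 0.6 or more were reached in 52.1% and 53.5% of introns, in 36.4% of them in both conditions and in 30.8% in neither. Other adenosines from −50 to −15, taken over all introns with sequence and not only those with the motif, averaged 0.405 ± 0.288 in vivo (n = 71628 adenosines) and 0.415 ± 0.286 deproteinized (n = 75716).

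The adenosine of the same letters at the intron middle did not stand out. In introns of 150 nt or more, the adenosine of the motif averaged 0.614 in vivo and 0.615 deproteinized near the intron end (1313 introns). At the middle it averaged 0.355 and 0.354 (635 introns), which was 0.00964 above its flanks in vivo (95% interval −0.0102 to 0.0295) and 0.000456 above them deproteinized (95% interval −0.0195 to 0.0204). Some other letters of the motif at the middle were above the flanks. In vivo the purine was above them by 0.0386 (95% interval 0.0166 to 0.0605). Deproteinized, the U was above them by 0.0341 and the last pyrimidine by 0.0269, both with intervals above 0. The remaining letters had intervals that include 0. A lower score 7 nt before the adenosine occurred in both places, with 0.315 in vivo near the end and 0.309 at the middle.

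Between the conditions, the neighbours of the branch adenosine differed and the adenosine did not detectably. Scores cannot pass 1, which the adenosine reached in 36.4% of introns in vivo and 38.6% deproteinized. The purine before it reached 1 in 12.6% and 19.7%. The part of this limit in the comparison was not tested. At the adenosine, in vivo minus deproteinized was −0.000563 (95% interval −0.0235 to 0.0224, n = 1977). By strand it was −0.0257 on the plus and 0.0307 on the minus strand, both with intervals that include 0. Without scores of 0 it was −0.0262, and with the wider motif CUNAN −0.0183, both with intervals below 0. At the purine before it, the means were 0.445 ± 0.307 in vivo and 0.530 ± 0.326 deproteinized, a difference of −0.0832 (95% interval −0.103 to −0.0639, n = 1950). This was −0.0866 on the plus and −0.0790 on the minus strand. The U before that purine differed by −0.0509, the C at the start of the motif by −0.0369 and the pyrimidine after the adenosine by −0.0469, all with intervals below 0. The flanks as a whole, which include that C, differed by −0.0185 (95% interval −0.0236 to −0.0133). The nucleotide 2 nt after the adenosine, outside both the motif and the flanks, differed by −0.0533 (95% interval −0.0692 to −0.0374).

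At the intron middle, the purine of the same motif had no such difference, with 0.0211 (95% interval −0.00631 to 0.0485, n = 604), beside −0.102 (95% interval −0.127 to −0.0770, n = 1211) near the end of introns of 150 nt or more. The other neighbours were lower in vivo at the middle too. C differed by −0.0251 and U by −0.0265, both with intervals that include 0, and the last pyrimidine by −0.0272, with an interval below 0. Near the end of these introns they differed by −0.0453, −0.0469 and −0.0464. The 4 forms of the motif were alike at the adenosine, with in vivo means between 0.581 for CTGAT (756 introns) and 0.622 for CTAAT (695 introns), and SDs of 0.378 and 0.385. Their differences between conditions lay between −0.0264 for CTAAC and 0.0144 for CTAAT, all with intervals that include 0.

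The distance of the motif from the AG went with the level of its adenosine. Adenosines from −29 to −25 averaged 0.669 in vivo and 0.662 deproteinized (495 introns), and those from −24 to −20 0.653 and 0.633 (453 introns). Farther away, from −50 to −40, they averaged 0.480 and 0.490 (323 introns), and close to the AG, from −19 to −15, 0.551 and 0.608 (221 introns). The excess over the flanks in vivo was 0.309 (95% interval 0.270 to 0.348) from −29 to −25 and 0.131 (95% interval 0.0844 to 0.178) from −50 to −40. The intervals of neighbouring classes from −29 to −20 overlapped.

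**Figure D5:**
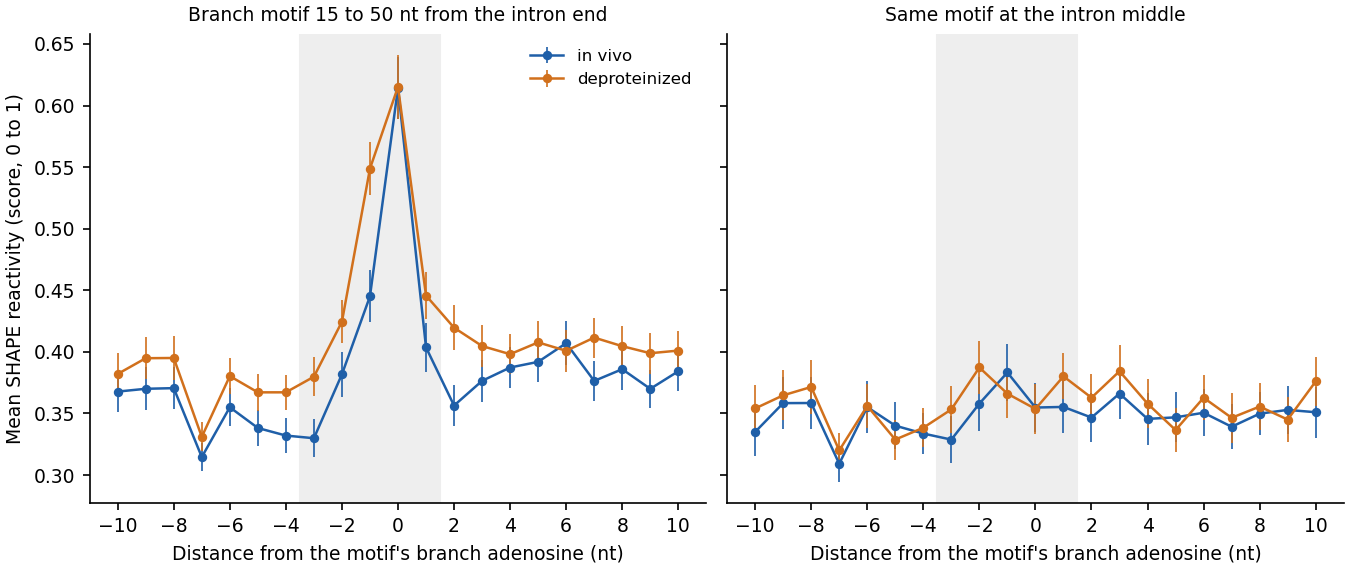
Mean SHAPE reactivity (y, score; the axis does not start at 0) by distance from the adenosine of the branch motif (x, nt; motif shaded) in introns of 150 nt or more, for motifs 15 to 50 nt from the intron end (left, 1313 introns) and at the intron middle (right, 635 introns), in vivo in blue and deproteinized in orange, with 95% intervals. The adenosine peaks at 0.614 and 0.615 near the end and lies at 0.355 and 0.354 at the middle, and the purine before it is lower in vivo on the left only.

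A few introns carried the signals of the minor, U12-type spliceosome, whose branch site pairs with U12 snRNA and lies closer to the 3′ss. A U12-type 5′ splice site, ATATCCT in introns that start with AU and GTATCCT in those that start with GU, was found in 55 introns. Of these, 25, in 23 genes, also had the branch motif CCTTAAC, its form with U at the end CCTTAAT, that with G before the adenosine CCTTGAC or that with both changes CCTTGAT, with the adenosine next to the last base 8 to 40 nt from the intron end. This class was formed after the profile was seen. Its adenosine lay at a median of −14, from −10 to −26, and 11 of the introns started with AU and 14 with GU.

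The adenosine of the U12-type motif averaged 0.585 ± 0.418 (SD, n = 23) in vivo and 0.809 ± 0.318 (n = 25) in the deproteinized condition. Within introns the difference was −0.251 (95% interval −0.467 to −0.0362, n = 23). Scores of 0.6 or more were reached by 52.2% in vivo and 72% deproteinized. The purine before it averaged 0.357 and 0.435. The whole window of these introns differed by −0.0329 (95% interval −0.0584 to −0.00734, n = 23). With so few introns of 1 merged profile per condition, the interval is wide, and the difference from the CURAY adenosines was not tested.

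The sequences of a pair of these introns show how near the motif lies to the end, with capitals as above.
AT3G06760, plus strand, chr3:2133855-2133904, in vivo: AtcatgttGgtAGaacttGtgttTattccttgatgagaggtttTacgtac
AT3G06760, deproteinized: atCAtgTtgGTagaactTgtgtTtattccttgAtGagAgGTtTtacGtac
AT2G39960, intron 2 of 4, minus strand, chr2:16682908-16682957, in vivo: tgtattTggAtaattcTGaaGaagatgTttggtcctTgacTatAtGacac
AT2G39960, deproteinized: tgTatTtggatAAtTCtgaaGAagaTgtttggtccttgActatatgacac
In AT3G06760, which encodes a drought-responsive family protein and whose listed intron is in no RefSeq transcript, the adenosine of CCTTGAT at −18 scored 0 in vivo and 1 deproteinized. In AT2G39960, for a subunit of the microsomal signal peptidase, the adenosine of CCTTGAC at −12 scored 0.0975 in vivo and 1 deproteinized. They are, with AT5G49540, the introns of this class with all scores present and the smallest shares of the recurring score. In AT5G49540, a gene for a Rab5-interacting family protein, the adenosine of CCTTAAC at −12 scored 0.648 in vivo and 1 deproteinized.

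The terminal AG had scores in both conditions in most introns. According to the methods of the study, the last dinucleotide of the intron was left out of the calculation, because a read that starts at the first exon nucleotide may come from spliced or from unspliced RNA. The deposited rows nevertheless hold scores there, with 4.39% missing at −2 and 4.49% at −1 in vivo and under 0.5% deproteinized (0.406% and 0.360%). How these scores were obtained is not given in the sources used here, so the values at −2 and −1 carry this limit.

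In introns ending with AG, the A at −2 differed between the conditions by −0.0204 and the G at −1 by −0.0301 on average. The median over introns was −0.00968 at −2 and 0 at −1, and with ranks the mean differences were −0.00802 and −0.0115. By the base at −3, the commonest ending was CAG, with 5103 introns (60.3%), followed by UAG with 2262 (26.7%), AAG with 841 (9.94%) and GAG with 256 (3.03%). The terminal G averaged 0.429 ± 0.332 (SD) in CAG, 0.428 ± 0.329 in UAG, 0.413 ± 0.318 in AAG and 0.369 ± 0.281 in GAG introns in vivo, and 0.455, 0.473, 0.447 and 0.392 in the deproteinized condition. At the G, in vivo minus deproteinized was −0.0234 (95% interval −0.0345 to −0.0124) in CAG and −0.0447 (95% interval −0.0617 to −0.0277) in UAG introns, and these intervals overlap. At −3 itself, C averaged 0.336 in vivo and 0.365 deproteinized and U 0.379 and 0.404.

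Another AG between −50 and −3 was present in 6475 of the 8462 introns ending with AG (76.5%), with a median of 2 per intron. Such an AG was less frequent close to the end: from −12 to −6, 1.13% to 1.78% of introns had one starting at a given position, against 3.16% to 5.55% from −50 to −25. At −5 the share was 4.05% and at −4 it was 0.555%. Within introns, the terminal A was less reactive and the terminal G more reactive than those of the other AGs. In vivo the terminal A averaged 0.359 and the other A 0.391, a difference of −0.0323 (95% interval −0.0413 to −0.0233, n = 6091), and the terminal G 0.426 and the other G 0.352, a difference of 0.0745 (95% interval 0.0643 to 0.0848, n = 6087). In the deproteinized condition the differences were −0.0288 (95% interval −0.0376 to −0.0201, n = 6444) and 0.0924 (95% interval 0.0815 to 0.103, n = 6442). For the A, the difference was −0.0199 on the plus and −0.0478 on the minus strand in vivo, and −0.0177 and −0.0418 in the deproteinized condition. The terminal G was the higher in 50.7% of introns in vivo and 52.7% deproteinized, and the median difference was 0.00394 and 0.0275, well below the mean.

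In the 115 introns from AU to AC, C takes the place of the terminal G. It averaged 0.353 ± 0.294 (SD, n = 98) in vivo and 0.369 ± 0.295 (n = 111) deproteinized, and the A before it 0.357 ± 0.255 and 0.394 ± 0.239. Only 11 of these introns had the U12-type branch motif. Over all introns from AU to AC, the last 50 nt averaged 0.377 in vivo (n = 106) and 0.398 deproteinized (n = 110), against 0.331 and 0.353 in their middle. The 254 introns that start with GC averaged 0.364 ± 0.0761 (n = 234) and 0.386 ± 0.0664 (n = 250) over the last 50 nt.

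The mean score of the last 50 nt was higher in longer introns. Scores are scaled within each intron, and no intron middle by length class is given here. Whether the end or the whole intron scored higher can therefore not be told. In introns of under 150 nt the last 50 nt averaged 0.368 in vivo and 0.378 deproteinized (3311 introns), and in those of 500 nt or more 0.392 and 0.411 (1139 introns). The stretch from −38 to −22 differed between the conditions by −0.0215 (95% interval −0.0253 to −0.0176) in the former and −0.0352 (95% interval −0.0426 to −0.0278) in the latter. The low scores at −5 and −4 stayed between 0.319 and 0.331 in all 4 length classes in vivo.

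Shorter introns, of 50 to 99 nt, were outside the set and serve as a comparison (7040 introns). Their last 50 nt averaged 0.365 in vivo and 0.366 deproteinized, a difference of −0.00149 (95% interval −0.00372 to 0.000733). From −38 to −22 the difference was −0.0136 (95% interval −0.0162 to −0.0109), smaller than the −0.0278 of the longer introns, with intervals that do not overlap. Scores at −5 and −4 were also low, with 0.316 and 0.312, and the −1 position was high, with 0.437 and 0.463. In so short an intron the last 50 nt make up most of the length, so no middle apart from them can be given.

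The introns with the largest differences between the conditions were looked up among the 799 introns with the lowest shares of the recurring score, the lowest 10%, with shares of at most 15.8%, and are a description, since they were chosen by the difference. Lower in vivo were introns of RAP2.4, an AP2/ERF transcription factor gene, with 0.0521 in vivo and 0.522 deproteinized, of AXR3, an Aux/IAA repressor gene of auxin signalling, with 0.186 and 0.542, and of PCAP1, for a cation-binding protein of the plasma membrane, with 0.205 and 0.519. In RAP2.4 the middle was also lower in vivo, with 0.0608 and 0.257, while in AXR3 it was 0.283 and 0.378 and in PCAP1 0.367 and 0.437.

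Higher in vivo were introns of GRF6, a gene for a 14-3-3 protein, with 0.816 in vivo and 0.188 deproteinized, of GRP-3, for a glycine-rich protein, with 0.589 and 0.325, and of AT2G31141, for an uncharacterized protein, with 0.463 and 0.188. The GRF6 difference rested on 26 nt and the GRP-3 difference on 38 nt with scores in both conditions. In GRP-3 the middle was higher in vivo as well, with 0.717 and 0.389, and likewise in AT2G31141, with 0.447 and 0.0970. None of these 6 introns had a CURAY motif in the window, which 24.4% of all introns with sequence had, so little can be read from this. The listed introns of RAP2.4 and GRP-3 are in none of the RefSeq transcripts of these genes.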

How the data were processed

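Per the methods of the study and the submitters' processing notes, reads were checked with FastQC 0.11.5, trimmed with cutadapt 1.14 and aligned with HISAT2 2.1.0 to TAIR10 with added isoforms. Uniquely mapped, unsplit reads over introns and exon-intron junctions were kept, the 2 biological replicates were merged, and reverse-transcription stops with and without NAI were turned into reactivities. The deposited values are scores that the authors normalised to 0 to 1, 1 per nucleotide. No read counts were used here, so depth is unknown.

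From these scores, means over windows were computed in Python 3.11.15 with numpy 2.4.6 and scipy 1.17.1 and plotted with matplotlib 3.10.9. A window needed scores in at least 50% of its nucleotides, and differences between conditions used nucleotides with a score in both. The 95% intervals came from a variance over introns summed by gene, and were tested on simulated data. With 1 merged profile per condition, no test between conditions was possible.

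Named introns were, of 1844 with AG, a CURAY motif and scores at all positions before the AG in both conditions, the 6 from 6 genes with the lowest share of the recurring score, and the 3 highest and 3 lowest differences in the lowest 10% by that share. Sequences are from TAIR10.1, in which the coordinates placed AG at 98.6% of intron ends. The sequences of AT3G15010 and AT5G49540 are not shown, since a transcript has noncoding exon there. Members, lists and windows were chosen with earlier results of these data known. Introns without an annotated gene (35) took no part in sequence results. Files around poly(A) sites were not used here.

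Alternatives left out scores of 0 or the recurring score, used percentile ranks within the intron, 1 intron per gene or per 3′ end, complete windows, introns of 150 nt or more with a 50 nt middle, medians, a threshold of 0.2, the motif CUNAN, an A 18 to 40 nt from the end, positions −15 to −5 and another same-base reference. Introns with 200 scores present, each strand, and introns with like shares of the recurring score were added after seeing the data, as were the stretch from −38 to −22 and the motif at the intron middle.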

Additional observations from a re-analysis of the deposited data

How the results depend on the processing

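A call here means a 95% interval that excludes 0. With 1 intron per gene, 1 per 3′ end, complete windows or at least 200 scores present, all 21 results kept their call, and those with an interval that excludes 0 stayed within 1.5 times. The difference at the branch adenosine, near 0 with an interval that includes 0, was −0.0173, −0.00490, −0.00159 and −0.00201 under these settings.

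Percentile ranks, which are on another scale, moved most: −0.00176 for in vivo minus deproteinized over the last 50 nt, −0.0156 from −38 to −22, −0.00802 at −2, −0.0115 at −1, 0.0471 and 0.0564 for the terminal against other G in vivo and deproteinized, and 4.02% and 3.84% of introns lower and higher past 0.1. Under ranks the middle changed sign, to 0.00383.

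For the middle, in vivo minus deproteinized was −0.00423 without scores of 0, −0.00427 without the recurring score, −0.0134 at 50 nt in introns of 150 nt or more and −0.00217 (interval including 0) with like shares of the recurring score. Beyond the middle, the last 50 nt gave −0.0167 without the recurring score, −0.00423 in introns of 150 nt or more, −0.0148 with like shares, −0.0143 on the plus and −0.000247 (interval including 0) on the minus strand. The last 50 nt alone gave −0.0238 and −0.00488 by strand. From −38 to −22 beyond the middle, the value was −0.0335 without the recurring score, and that on each strand was below 0.

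The terminal against other A was −0.0199 in vivo and −0.0177 deproteinized on the plus strand. Terminal against other G deproteinized was 0.140 without scores of 0. Medians gave −0.00968 at −2, 0 at −1, 0.00394 and 0.0275 for terminal against other G and −0.0458 before the branch adenosine. The branch adenosine differed by −0.0262 without scores of 0 and −0.0183 with CUNAN, both with intervals below 0.

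Without the recurring score 10.2% of introns were higher in vivo past 0.1, and past 0.2 the shares were 1.26% lower and 0.559% higher. The cause of these shifts was not tested. Unknown depth and merged replicates limit all values.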
